A study of Mus musculus with 6 samples.

Results

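The 10 genes described here act in MHC class I antigen presentation. They were taken by name from the deposited table, which holds 17428 genes: the class I heavy chains *H2-K1*, *H2-D1* and *H2-T23*, the light chain *B2m*, the peptide transporter subunits *Tap1* and *Tap2*, tapasin (*Tapbp*) and the immunoproteasome subunits *Psmb8*, *Psmb9* and *Psmb10*. All 10 had a row, and all passed the filter on low coverage. RNA was sequenced from 3 stages of EpH-4, a mouse mammary epithelial cell line, with 2 biological replicates per stage. E cells grew in normal medium and never received TGFβ1, M cells received TGFβ1 for 7 days, and RE cells were M cultures returned to normal medium for another 4 days. All stages come from 1 line, so the libraries describe cultures of that line and not mammary tissue.

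MHC class I molecules carry short peptides from inside the cell to its surface, where cytotoxic T cells read them. Proteasomes cut proteins into peptides, the TAP transporter moves the peptides into the endoplasmic reticulum, and tapasin holds empty class I molecules next to TAP until a peptide binds. Interferons induce most of these genes, together with the immunoproteasome, in which *Psmb8*, *Psmb9* and *Psmb10* take the places of the constitutive catalytic subunits *Psmb5*, *Psmb6* and *Psmb7*.

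The values are coverage, that is, sequenced bases summed per gene, scaled to ppm (bases of a gene per 1e+06 bases of the library) after TMM normalization. The libraries held between 35782513 and 47928557 reads' worth of 50 bases. Log2 fold changes, given with their standard error (SE), come from limma on log2(ppm + 0.1) with all 6 libraries in 1 fit, which understates the change of low genes, and adjusted p-values are limma's after Benjamini-Hochberg adjustment over the 13893 genes tested. A gene was called where its log2 fold change exceeded 1 either way with an adjusted p below 0.01. In the table, 7 of 8 listed epithelial markers had a row, with *Cdh1* between 244 and 327 ppm in every library, whereas *Krt5* and *Krt19* stayed below 0.49 ppm. Of 10 listed leukocyte markers, 7 had a row, and the defining genes *Ptprc* and *Cd3e* were at 3 reads' worth or less in all libraries. The leukocyte sum was 16.9 to 17.9 ppm in E, 31.9 to 33.3 in M and 31.4 to 34.9 in RE, and its largest parts were *Cd14* and *Cd68*. The sum of the epithelial markers was 1519 to 1909 ppm in E, 1910 to 2020 in M and 1068 to 1127 in RE, and that of 6 fibroblast and mesenchymal markers 136 to 165, 989 to 1137 and 1067 to 1249. Within these sums, markers went different ways. *Krt14* was at 315 and 223 ppm in E and 666 and 755 in M, but *Cldn4* at 213 and 177 in E and 95.5 and 89.4 in M. *Pdgfrb* was at 458 and 409 in M and 811 and 688 in RE, but *Col1a1* at 555 and 438 in M and 271 and 202 in RE. The part of these shifts in the results on the members was not tested. In these bulk libraries, fewer cells with a transcript and less of it per cell cannot be told apart.

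The members did not all change in 1 direction. Coverage of *Tapbp* and *Psmb10* rose in the M cells, *Psmb10* fell again after TGFβ1 removal, and *H2-T23* coverage rose once TGFβ1 was withdrawn. No member was called between E and RE cells. In E vs. M, 2 of the 10 members were called, both higher in M, beside 17.0% of all genes tested (8.58% higher and 8.39% lower). In M vs. RE, 1 member was called higher in RE and 1 lower, beside 12.9% of all genes (8.08% higher and 4.79% lower). In E vs. RE, 0 were called, beside 9.37% of all genes (6.20% higher and 3.17% lower), and 2 (*H2-D1* and *Tapbp*) had an unadjusted limma p below 0.05. The shares of members called are close to those of all genes. At an adjusted p below 0.05 and any fold, limma passed 6 members between E and M (4 higher in M), 7 between M and RE (1 higher in RE) and 2 between E and RE (1 higher in RE), beside 41.4%, 31.5% and 30.1% of all genes. The M pair exceeded the E pair without overlap for 6 members and was below it for 3 (35.5% and 35.0% of all genes), the RE pair exceeded the M pair for 3 and was below it for 7 (37.9% and 40.2%), and the RE pair exceeded the E pair for 3 and was below it for 2 (34.2% and 32.5%). The median log2 fold change of the members was 0.32 from E to M, -0.58 from M to RE and -0.08 from E to RE, against 0.00, -0.02 and 0.01 over all genes tested. The comparisons share libraries, so their values are not independent of each other.

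**Figure D1:**
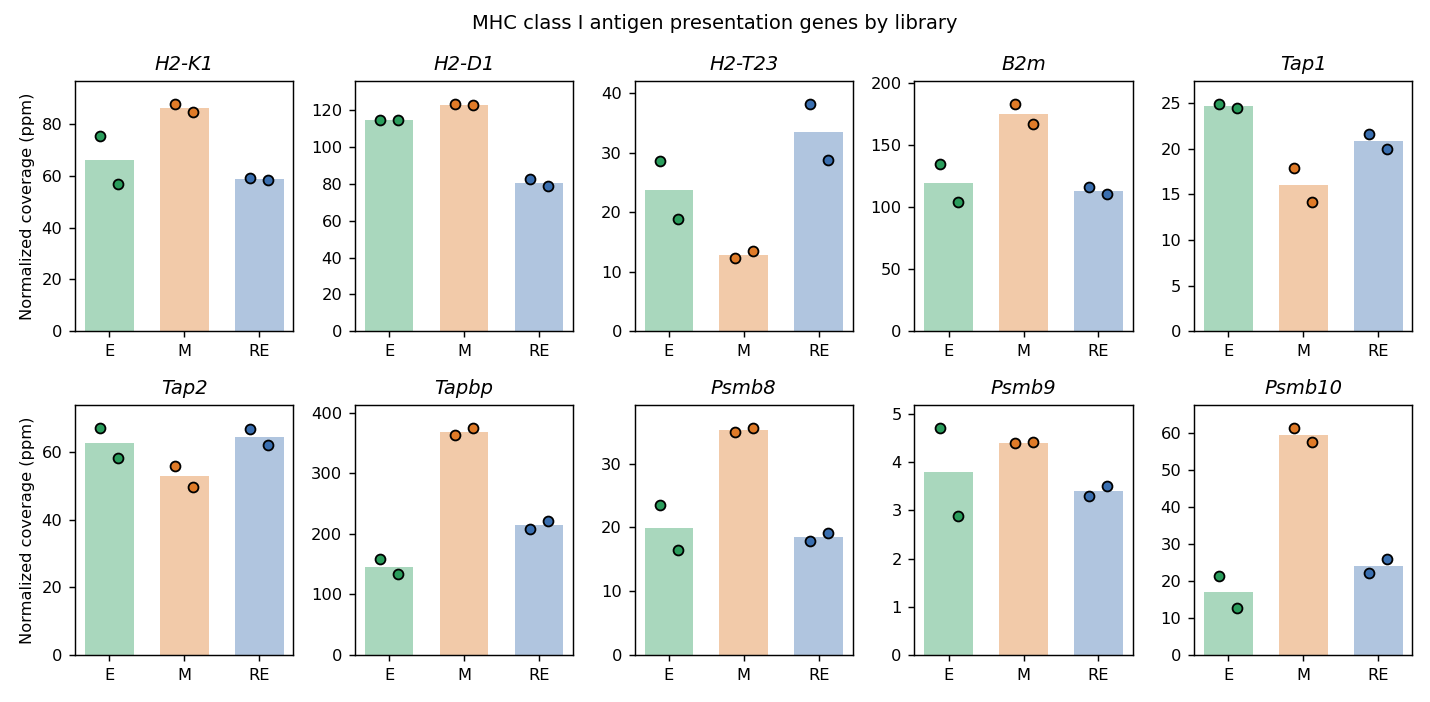
Normalized coverage in ppm (vertical axes, each starting at 0) of the 10 genes in the E, M and RE cells. Points are the 2 libraries of a stage with replicate 1 on the left, and bars are their means. *Tapbp* and *Psmb10* stand highest in both M libraries, and *H2-T23* lowest.

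The E libraries were unequal. The second E library lay below the first for 10 of the 10 members, by a median of 0.39 on the log2 scale and by up to 0.73 for *Psmb10*, whereas 51.5% of all genes tested were lower in it and their median difference was -0.02. In the M and RE pairs, 6 of the 10 members were lower in the second library. Over all genes, log2 differences within the E pair had an SD of 0.558, against 0.318 within M and 0.309 within RE. For *H2-K1*, *B2m*, *Psmb8* and *Psmb9*, the sign of the E vs. RE difference depended on which E library was used, as the values without the first one show (0.05, 0.12, 0.17 and 0.23, respectively, against -0.16, -0.07, -0.09 and -0.11 with both). The same held for *Tap2*, at 0.14 without the first E library and -0.06 without the second, and its sign also changed without the first RE library.

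The heavy chains bind the peptide. *H2-K1* and *H2-D1* are the classical chains read by cytotoxic T cells, and *H2-T23* encodes Qa-1, a non-classical chain that presents leader peptides of other class I chains to NKG2 receptors. *H2-K1* coverage was 75.3 and 56.9 ppm in E, 87.6 and 84.6 in M and 59.1 and 58.4 in RE. *H2-D1* was at 114.9 and 114.5 in E, 123 and 123 in M and 82.5 and 78.7 in RE. Both M libraries were the highest and, for *H2-D1*, both RE libraries the lowest. From M to RE, the log2 fold change was -0.55 for *H2-K1* (SE 0.16, limma adjusted p = 0.0342) and -0.61 for *H2-D1* (SE 0.12, adjusted p = 0.00742), and neither reached the fold threshold. *H2-D1* in RE was 0.702 times its mean in E (log2 fold change -0.51, SE 0.12, limma adjusted p = 0.0174), also not called. The difference between M and E was 0.39 for *H2-K1* (limma adjusted p = 0.0819) and 0.10 for *H2-D1* (adjusted p = 0.528), neither of which passed the test, and for *H2-D1* it became -0.20 when libraries were scaled by their totals only. The sources used here do not name the step that assigned reads to genes. Class I heavy chain genes are alike in sequence and differ between mouse strains, and how many reads of each chain the authors' unique mapping left out was not tested.

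*H2-T23* went the other way. Its coverage was 28.6 and 18.9 ppm in E, 12.3 and 13.4 in M and 38.2 and 28.7 in RE. Both M libraries lay below every other library, and both RE libraries lay above both E libraries, the lower RE value only just. The mean in RE was 2.59 times that in M (log2 fold change 1.36, SE 0.23, 95% confidence interval 0.82 to 1.90, limma adjusted p = 0.00409). This call was lost when any 1 of the 4 M and RE libraries was left out, with values from 1.15 to 1.56. The decrease from E to M (-0.85, SE 0.23, limma adjusted p = 0.0224) was not called, but it was with library totals and without the second E library (-1.17). The log2 ratio of *H2-T23* to *H2-K1*, a comparison chosen after their values were seen and nearly free of library scaling, changed by -1.24 from E to M and by 1.91 from M to RE. The groups did not overlap in either (exact two-sided permutation p = 0.333 in both, the smallest that 2 against 2 libraries can give).

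The promoters of these chains are shown because the ratio of *H2-T23* to *H2-K1* changed between stages. They were matched by symbol to RefSeq promoters of GRCm38.p6, a newer build than the NCBI-m37 used by the authors, and run from 250 bases before to 50 after the gene start, 5′ to 3′ on the gene's strand. Of the 10 members, 9 had a promoter, in 10 windows, since *H2-K1* has a second start. Capitals mark matches on either strand to the interferon-stimulated response element core (ISRE: GAAA, 2 bases of any kind, GAAA), the gamma-activated site core (GAS: TTC, 3 bases of any kind, GAA) or the NF-kB consensus. The windows lie at chr17:34000298-34000597 (minus strand) and chr17:36032652-36032951 (minus strand).
H2-K1 promoter: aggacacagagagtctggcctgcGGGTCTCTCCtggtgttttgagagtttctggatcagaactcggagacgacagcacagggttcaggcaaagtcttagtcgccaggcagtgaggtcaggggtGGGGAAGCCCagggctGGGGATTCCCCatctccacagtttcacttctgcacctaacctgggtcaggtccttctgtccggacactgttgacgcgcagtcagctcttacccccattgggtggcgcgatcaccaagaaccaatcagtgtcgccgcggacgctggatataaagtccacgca
H2-T23 promoter: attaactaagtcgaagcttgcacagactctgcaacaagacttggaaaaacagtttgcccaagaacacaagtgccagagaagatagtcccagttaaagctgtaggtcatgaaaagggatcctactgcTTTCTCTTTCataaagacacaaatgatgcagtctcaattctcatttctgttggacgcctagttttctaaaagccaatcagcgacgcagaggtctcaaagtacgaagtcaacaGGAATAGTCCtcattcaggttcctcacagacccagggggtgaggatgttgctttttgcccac
The *H2-K1* window holds NF-kB matches, several of which overlap each other, and no exact match to the ISRE core. The *H2-T23* window holds an ISRE core that begins 124 bases before the gene start and an NF-kB match near the start. Over all 32851 promoters of this length, 3.44% hold an ISRE core, 8.30% a GAS core and 26.8% an NF-kB match, against 2, 1 and 5 of the 10 windows of the members. The 5 include both *H2-K1* windows, which hold the same matches, and the *Tap1* and *Psmb9* windows overlap, so the windows are not separate units. A match in letters is not a measured binding site, and elements that differ from these letters in any base were not searched for.

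*B2m* encodes β2-microglobulin, the light chain that every class I heavy chain needs to reach the surface. Its coverage was 134 and 104 ppm in E, 183 and 167 in M and 116 and 110 in RE. The M libraries were the highest, and the RE pair lay between the E libraries. The log2 fold change of *B2m* was 0.56 in E vs. M (SE 0.16, limma adjusted p = 0.024) and -0.63 in M vs. RE (SE 0.16, adjusted p = 0.02). Both changes were under the fold threshold and were not called. Its difference between RE and E was -0.07 (95% confidence interval -0.43 to 0.30). Per kb of the longest coding transcript in GENCODE vM21, a newer annotation than the authors' build, *B2m* had the highest level of the members in E (139 ppm per kb), followed by *H2-D1* (54.6), *Tapbp* (50.4) and *H2-K1* (40.8), and *Psmb9* the lowest (2.81).

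In the *B2m* window (chr2:122147437-122147736, plus strand), exact matches to the ISRE core and the NF-kB consensus stand next to each other. They begin 139 and 127 bases before the gene start. No other member window had such a pair of exact matches, and inexact matches were not searched for.
B2m promoter: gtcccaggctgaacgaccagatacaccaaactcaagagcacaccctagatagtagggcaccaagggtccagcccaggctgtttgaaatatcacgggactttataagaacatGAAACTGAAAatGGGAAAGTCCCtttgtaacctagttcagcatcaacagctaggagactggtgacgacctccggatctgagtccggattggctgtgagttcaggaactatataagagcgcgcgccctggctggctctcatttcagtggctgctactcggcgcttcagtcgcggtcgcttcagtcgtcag

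*Tap1* and *Tap2* encode the subunits of the peptide transporter. *Tap1* was at 24.9 and 24.4 ppm in E, 17.9 and 14.1 in M and 21.7 and 19.97 in RE. *Tap2* was at 67.2 and 58.4 in E, 56.0 and 49.7 in M and 67.0 and 62.1 in RE. For both subunits the M libraries were the lowest, opposite to *B2m*, *Psmb8* and *Psmb10*. The *Tap1* mean in M was 0.649 times that in E (log2 fold change -0.63, SE 0.16, limma adjusted p = 0.0185), not called, and its change from M to RE was 0.39 (adjusted p = 0.114). *Tap2* differed by -0.25 in E vs. M (95% confidence interval -0.58 to 0.08, limma adjusted p = 0.197) and by 0.29 in M vs. RE (95% confidence interval -0.04 to 0.62, adjusted p = 0.162). Between RE and E the values were -0.24 for *Tap1* (limma adjusted p = 0.292) and 0.04 for *Tap2* (adjusted p = 0.841).

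*Tap1* stands head to head with *Psmb9*: in the RefSeq annotation of GRCm38.p6 their starts are 225 bases apart, and their promoter windows share 275 bases. The *Tap1* window (chr17:34187306-34187605, plus strand) is shown because most of it is also the *Psmb9* window. It holds none of the 3 marked motifs.
Tap1 promoter: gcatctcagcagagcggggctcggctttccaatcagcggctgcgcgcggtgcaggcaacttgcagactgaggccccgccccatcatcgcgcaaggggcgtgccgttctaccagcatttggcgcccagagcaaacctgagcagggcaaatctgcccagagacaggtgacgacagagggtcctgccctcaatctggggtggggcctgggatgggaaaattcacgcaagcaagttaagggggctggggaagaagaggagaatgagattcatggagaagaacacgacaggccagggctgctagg
The log2 ratio of *Psmb9* to *Tap1*, also chosen after the values were seen, was -2.38 and -3.04 in E, -2.001 and -1.65 in M and -2.68 and -2.48 in RE. It was higher in both M libraries than in any other, by 0.88 against the E mean and 0.75 against the RE mean (exact two-sided permutation p = 0.333 in each, the smallest possible). The exons of both genes overlap by 212 bases in GENCODE vM21, which is 7.2% of the *Tap1* and 15.7% of the *Psmb9* exon bases, so reads there may count for either gene.

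Tapasin bridges TAP and the empty class I molecule and favours the binding of stable peptides. *Tapbp* coverage was 158 and 134 ppm in E, 362 and 375 in M and 208 and 222 in RE. The 3 stages did not overlap. Its mean in M was 2.53 times that in E (log2 fold change 1.34, SE 0.14, 95% confidence interval 1.02 to 1.66, limma adjusted p = 0.000304), a call that held in all 18 alternative settings. From M to RE its log2 fold change was -0.78 (SE 0.14, limma adjusted p = 0.00449), which is under the fold threshold, and in RE it remained 1.47 times as high as in E (0.56, SE 0.14, adjusted p = 0.0201), also not called. In GENCODE vM21, 23.5% of the *Tapbp* exon bases also belong to another gene model, *Gm19412*. Other gene models likewise share 15.8% of the *Tap2* exon bases (*Gm15821* and *Gm20496*) and 11.4% of the *Psmb8* exon bases (*Gm20496*).

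**Figure D2:**
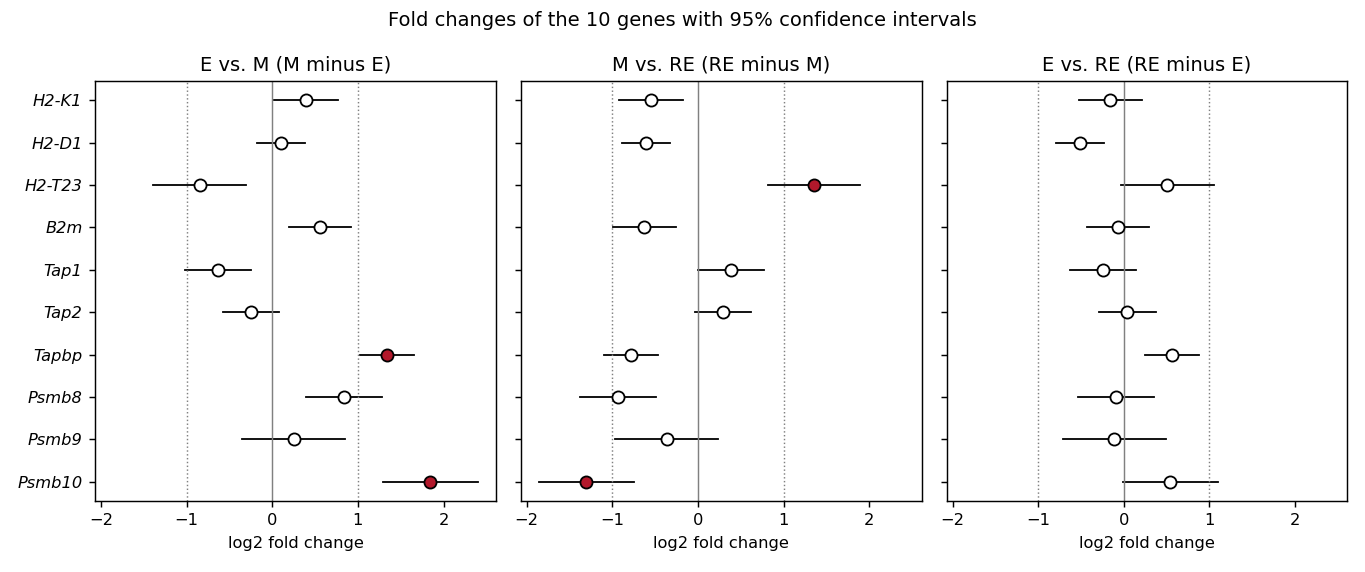
Log2 fold change (horizontal axis) of the 10 genes in the 3 comparisons, with 95% confidence intervals from limma. Red points passed both thresholds, and dotted lines mark the fold threshold. In E vs. M the called genes are *Tapbp* (1.34) and *Psmb10* (1.85), in M vs. RE *H2-T23* (1.36) and *Psmb10* (-1.30), and in E vs. RE no gene.

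Among the immunoproteasome subunits, *Psmb10* (MECL-1) changed most. Its coverage was 21.2 and 12.8 ppm in E, 61.4 and 57.6 in M and 22.2 and 26.0 in RE. The mean in M was 3.50 times that in E (log2 fold change 1.85, SE 0.24, 95% confidence interval 1.29 to 2.40, limma adjusted p = 0.000891). From M to RE it fell by 1.30 (SE 0.24, limma adjusted p = 0.00538). The rise lost its call without either M library (highest limma adjusted p = 0.0134), with log2 values from 1.46 to 2.21 over all left-out libraries. The fall lost its call without any 1 M or RE library, with no filter and with library totals. *Psmb10* in RE lay above both E libraries (0.54, 95% confidence interval -0.01 to 1.09, limma adjusted p = 0.119), which was not called.

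*Psmb8* (LMP7) was at 23.6 and 16.4 ppm in E, 35.03 and 35.6 in M and 17.9 and 19.1 in RE. Its log2 fold change was 0.84 in E vs. M, just outside both thresholds (SE 0.19, limma adjusted p = 0.0105), and -0.93 in M vs. RE (SE 0.19, adjusted p = 0.00893), under the fold threshold. Without the first E library, the E vs. M difference was 1.10 and was called, and without the second it was 0.56 and was not. *Psmb9* (LMP2) was at 4.71 and 2.88 in E, 4.39 and 4.41 in M and 3.31 and 3.49 in RE. Its E libraries spanned all the others. Neither its difference in E vs. M (0.25, 95% confidence interval -0.35 to 0.85, limma adjusted p = 0.462) nor that in M vs. RE (-0.36, 95% confidence interval -0.96 to 0.24, adjusted p = 0.323) was detectable at this replication.

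The promoters of the 2 genes called higher in M are shown for comparison with the windows above. They lie at chr17:33919228-33919527 (plus strand) and chr8:105938343-105938642 (minus strand). Neither window holds an exact match to the ISRE core, the GAS core or the NF-kB consensus. Among the members the GAS core was matched in the *Psmb8* window only.
Tapbp promoter: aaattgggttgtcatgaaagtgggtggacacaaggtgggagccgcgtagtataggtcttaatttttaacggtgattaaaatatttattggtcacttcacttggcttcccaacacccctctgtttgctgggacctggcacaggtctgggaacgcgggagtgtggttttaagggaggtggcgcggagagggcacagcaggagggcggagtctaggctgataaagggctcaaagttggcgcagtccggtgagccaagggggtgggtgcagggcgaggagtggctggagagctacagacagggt
Psmb10 promoter: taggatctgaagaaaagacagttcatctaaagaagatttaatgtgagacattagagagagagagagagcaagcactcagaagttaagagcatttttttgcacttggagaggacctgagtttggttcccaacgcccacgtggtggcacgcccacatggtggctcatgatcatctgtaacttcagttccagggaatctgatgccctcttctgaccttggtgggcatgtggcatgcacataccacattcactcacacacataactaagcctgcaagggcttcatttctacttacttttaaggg

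Each immunoproteasome subunit was also set against the constitutive subunit it replaces, a ratio in which the scaling of the libraries nearly cancels. None of *Psmb5*, *Psmb6* and *Psmb7* was called in any comparison, with log2 fold changes of 0.12, -0.18 and 0.03 in E vs. M and -0.31, -0.09 and -0.34 in M vs. RE. The log2 ratio of *Psmb10* to *Psmb7* was -3.43 and -3.77 in E, -1.81 and -1.74 in M and -2.83 and -2.66 in RE. All 3 stages were apart, with M highest and RE between M and E. The differences between stage means were 1.82 from E to M, -0.97 from M to RE and 0.85 from E to RE. *Psmb8* to *Psmb5* went from a mean of 0.95 ± 0.24 (SD, n = 2) in E to 1.67 ± 0.29 in M and 1.051 ± 0.0029 in RE, and *Psmb9* to *Psmb6* from -4.87 ± 0.22 to -4.44 ± 0.0018 and -4.72 ± 0.011. For these 2 pairs the M libraries were above all others, while the RE libraries overlapped with the E libraries. With 2 against 2 libraries the exact two-sided permutation test cannot go below p = 0.333, which was its value wherever the groups did not overlap. These ratios compare changes only, since the levels of the 2 genes in a pair were not scaled to length.

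**Figure D3:**
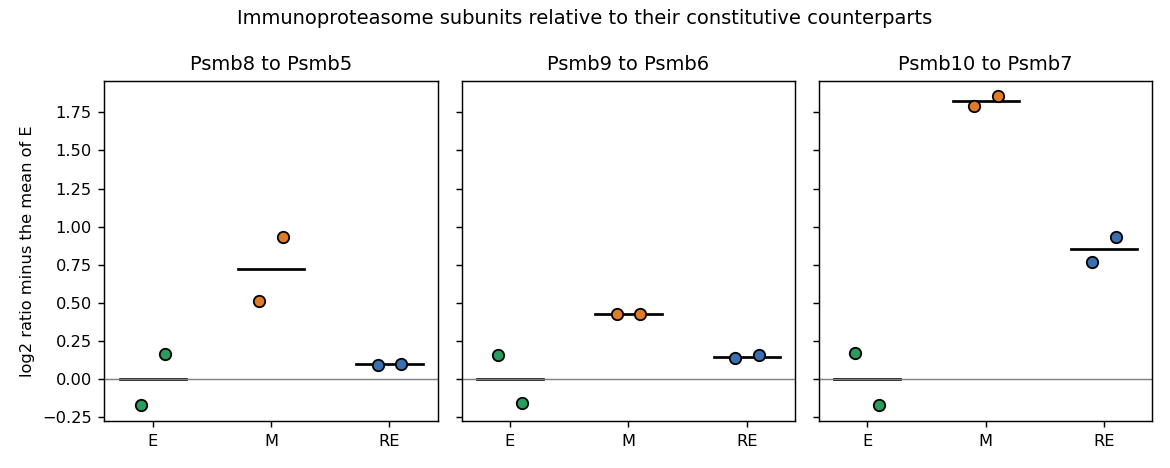
Log2 ratio of each immunoproteasome subunit to its constitutive counterpart, minus the mean of the E libraries (vertical axis). Points are libraries and lines are stage means. In M the means lie 0.72, 0.43 and 1.82 above E for *Psmb8*, *Psmb9* and *Psmb10*, and in RE 0.10, 0.15 and 0.85.

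Further genes of the pathway were counted in lists chosen for their roles. Of 15 peptide loading and trimming genes tested, 4 of which are members (*B2m*, *Tap1*, *Tap2* and *Tapbp*), 11 were no members, and 3 of these 11 were called higher in M than in E and 0 lower, beside 8.58% and 8.39% of all genes. They were *Tapbpl*, which edits peptides in a tapasin-like way, *Erap1*, which trims peptides in the endoplasmic reticulum, and *Lnpep*, an aminopeptidase of endosomes. *Erap1* was at 109 and 87.9 ppm in E, 300 and 271 in M and 119 and 124 in RE (log2 fold change 1.54 from E to M, limma adjusted p = 0.000228, and -1.23 from M to RE, limma adjusted p = 0.000831). *Tapbpl* followed the same course (1.28, limma adjusted p = 0.000585, and -1.23, adjusted p = 0.000862). Both *Tapbpl* calls and the *Erap1* call in M vs. RE were lost in some fits without a library. *Lnpep* rose by 2.03 in E vs. M (limma adjusted p = 0.00108) and stayed higher in RE than in E (1.92, adjusted p = 0.0028). The median log2 fold change of all 15, members included, was 0.50 from E to M and -0.36 from M to RE, against 0.00 and -0.02 over all genes tested.

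Of the 14 constitutive 20S subunits tested, 0 were called in any of the 3 comparisons by limma, beside 17.0%, 12.9% and 9.37% of all genes. At an adjusted p below 0.05 there were also 0, beside 41.4%, 31.5% and 30.1% of all genes. The median log2 fold changes of these subunits were 0.07 from E to M, -0.29 from M to RE and -0.22 from E to RE. Among the 10 proteasome activators and assembly factors, 1 was called, lower in M than in E, beside 8.39% of all genes. This was *Psmg3*, an assembly chaperone (-1.01, limma adjusted p = 0.00237), at the fold threshold. Leaving out single libraries gave -1.12 to -0.93 for *Psmg3*, with limma adjusted p up to 0.0358, and ended its call in 5 of 6 cases. Of 14 class I and class I-like heavy chains tested, 3 of which are members, *Cd1d1*, which presents lipids, was higher in M (1.65, limma adjusted p = 0.00149 in E vs. M). *H2-Q9* was lower in M (-1.66, limma adjusted p = 0.00185) and in RE than in E (-1.45, adjusted p = 0.00573). *Mr1*, which presents vitamin B metabolites, was higher in RE than in E (1.02, limma adjusted p = 0.00538), close to the fold threshold. That call was lost with library totals (0.93) and without any 1 M or RE library (0.95 to 1.10 for *Mr1* over left-out libraries, limma adjusted p up to 0.0776).

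Factors that act on class I promoters were counted as a list of their own. *Nlrc5*, the transactivator of class I promoters, had low coverage of 0.899 and 1.87 ppm in E, 0.359 and 0.667 in M and 0.637 and 0.666 in RE, with log2 fold changes of -1.24 in E vs. M (limma adjusted p = 0.0441) and 0.34 in M vs. RE (adjusted p = 0.571). *Irf1*, an interferon-induced activator of class I and immunoproteasome genes, was at 75.1 and 69.8 in E, 80.1 and 78.8 in M and 234 and 208 in RE. It was highest in both RE libraries (1.47 from M to RE, SE 0.13, limma adjusted p = 0.00017, and 1.61 from E to RE, limma adjusted p = 0.000418). *Prdm1*, a transcriptional repressor, had 0.111 and 0.0390 ppm in E, where 3 reads' worth are 0.0694 and 0.0781. It rose from 0.0751 ± 0.051 ppm to 5.83 ± 1.57 in M and was at 0.468 ± 0.15 in RE (5.09 from E to M, limma adjusted p = 6.5e-05, and -3.38 from M to RE, limma adjusted p = 0.000467). In all, 2 of 24 factors tested were called higher in M than in E, 2 higher and 1 lower in RE than in M, and 3 higher in RE than in E, beside 8.58%, 8.08%, 4.79% and 6.20% of all genes. Besides those named, *Rel* was higher in M (1.36, limma adjusted p = 0.0017) and RE (1.76, adjusted p = 0.00125) than in E, *Irf7* higher in RE than in M (1.76, adjusted p = 0.00137), and *Stat3* higher in RE than in E (1.16, adjusted p = 0.00423).

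In the interferon receptor and signalling list (12 genes tested), *Ifngr2*, a chain of the interferon gamma receptor, and the kinase *Jak1* were called higher in M than in E (1.19, adjusted p = 0.000463, and 1.10, limma adjusted p = 0.000469). The list thus had 2 calls higher and 0 lower, beside 8.58% and 8.39% of all genes. *Ifngr2* was lower again in RE (-1.01, limma adjusted p = 0.00127), at the fold threshold. With library totals both calls in E vs. M ended (0.89 for *Ifngr2* and 0.79 for *Jak1*), and the list then had 0 calls higher and 1 lower. At an adjusted p below 0.05 by limma, 5 of the 12 were higher and 2 lower in M, beside 41.4% of all genes in either direction. Of the 39 interferon-induced genes tested, 9 were called higher and 6 lower in M than in E, 6 higher and 3 lower in RE than in M, and 3 higher and 1 lower in RE than in E, beside 17.0%, 12.9% and 9.37% of all genes in either direction. Their median log2 fold changes were 0.21, 0.12 and 0.40, against 0.00, -0.02 and 0.01 over all genes. In E vs. RE, 11 were higher and 2 lower at an adjusted p below 0.05 by limma, beside 30.1% of all genes in either direction. *Ifi44* was among those that rose in M (3.10, limma adjusted p = 8.3e-05) and fell in RE (-1.999, adjusted p = 0.000791), whereas *Gbp4* fell in M (-2.02, adjusted p = 0.00601) and rose in RE (2.53, adjusted p = 0.0028).

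**Figure D4:**
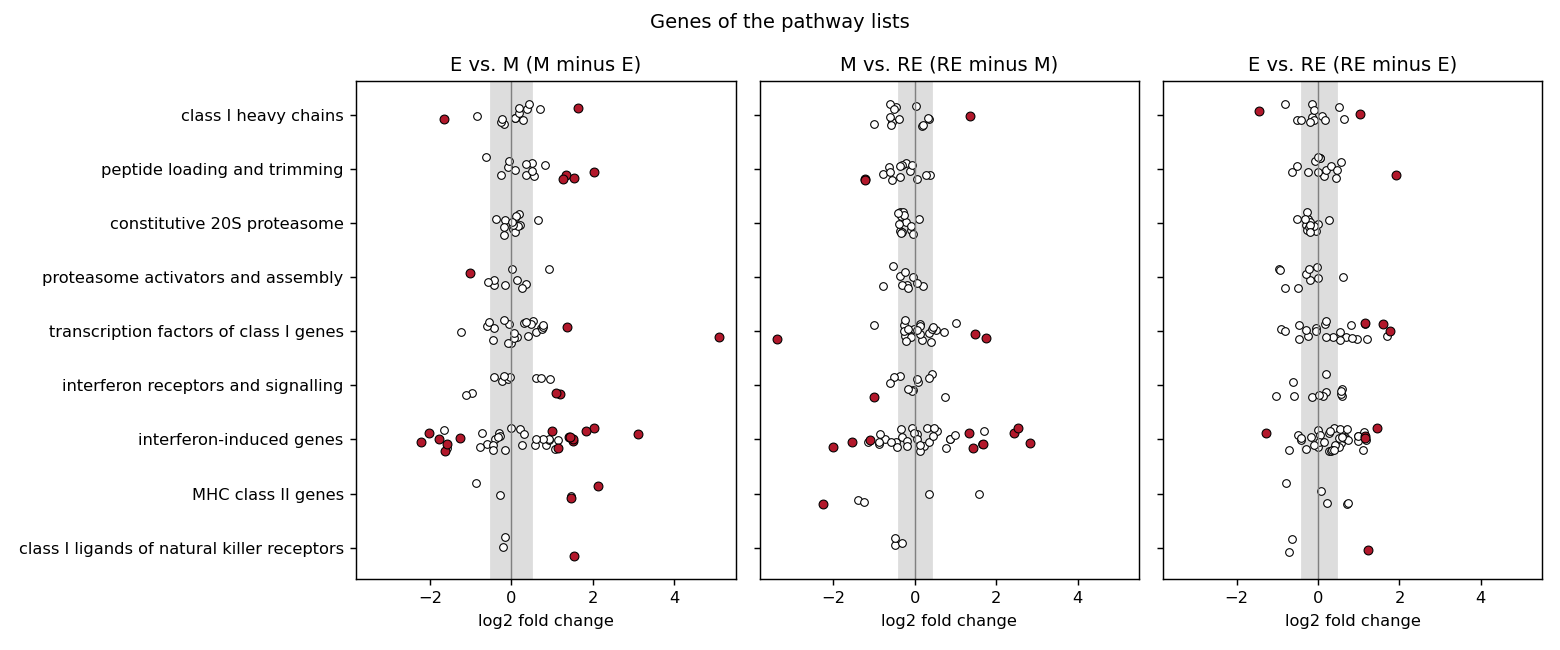
Log2 fold change (horizontal axis) of the genes tested in each pathway list (rows) in the 3 comparisons. Red points passed both thresholds, and the grey band spans the quartiles of all genes tested. The 20S proteasome row has no red point, and the interferon-induced genes have red points on both sides in each comparison.

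Across the 6 libraries the members did not share 1 pattern. *H2-K1*, *B2m* and *Psmb8* ran together, with Pearson correlations of log2 values between 0.97 and 0.98, and *Tapbp* with *Psmb10* at 0.98, while *Tap1* with *Tapbp* was at -0.93 and *Tap2* with *H2-T23* at 0.89. These are descriptions over 6 libraries in 3 stages with no test. With the mean of the other members, correlations ran from 0.92 for *Psmb9* to -0.62 for *Tap1*, and those of *H2-T23* (-0.61) and *Tap2* (-0.45) were also negative. The genes outside the list most like the mean standardized level of all 10 members were *Nudt18* (r = 0.996), *P4ha1* (0.993), *Txndc4* (0.990), *Etaa1* (0.989) and *Hsf2* (0.989). In these 5, as in that mean level (0.337 and -0.617 in the E libraries), the second E library lay below the first.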

How the data were processed

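RNA from 6 cultures of EpH-4 cells (2 each of E, M and RE) was sequenced. Per the methods of the study, the authors mapped unique reads to the mouse genome NCBI-m37 with Bowtie and TopHat2 and tested them with edgeR. How reads were assigned to genes, and whether strand was used, is not given in the sources used here. The deposited values were taken as coverage (signal) in sequenced bases per gene, in reads of 50 bases, and not as read counts. This was inferred from the values: of those above 0 and up to 400, 44.8% (M2) to 48.4% (E1) per library were multiples of 50. A count model was therefore not applied to them. This departs from the tool of the study. No deposited value column was left unused (0 columns).

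Coverage was divided by library totals and TMM factors (trims of 30% of log ratios and 5% of means), giving ppm. The filter kept the 13893 of 17428 genes whose coverage reached 500 bases in 2 or more libraries. limma 3.58.1 in R 4.3.3 was fitted to log2(ppm + 0.1) of all 6 libraries, with stage as the only term, a mean-variance trend and Benjamini-Hochberg adjustment over all genes tested. A call needed a log2 fold change beyond 1 and an adjusted p below 0.01. Library totals ran from 1789125650 to 2396427835 bases. A level of 150 bases, 3 reads' worth, served as the floor and reflects counting error alone. The replicates are stated to be biological, and p-values set differences between stages against the spread between these cultures. That spread was estimated over the 3 stages together, although replicates differed more in E (SD 0.558) than in M (0.318) and RE (0.309). Ratios of genes were compared by exact two-sided permutation tests.

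The members and gene lists were chosen with earlier results of these data known. Genes named in the text are the members, the counterparts *Psmb5*, *Psmb6* and *Psmb7*, the regulators *Nlrc5* and *Irf1*, up to 4 called genes per list by size of change, and the 5 genes most like the members. Some genes under this rule are not reported here. Other scalings, filters, pseudocounts, thresholds, library weights, a replicate block and leaving out each library were tried. Deviations of same-numbered libraries from their stage means correlated at 0.267 (E and M), 0.058 (E and RE) and 0.116 (M and RE), so replicate numbers were not taken to pair libraries. Scripts were tested on simulated data. Figures were drawn with matplotlib 3.10.9.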

Additional observations from a re-analysis of the deposited data

How the results depend on the processing

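Of 540 values of the members under alternatives, 512 kept their direction and side of the thresholds, 12 lost a call, 6 gained one and 10 changed sign. Of 984 values of other named genes, 840 kept them, 131 lost a call, most of them when an M or RE library was left out, 2 gained one and 11 changed sign. Calls lost in some fits without a library include *Irf1*, *Stat3*, *H2-Q9*, *Lnpep* and *Rel* in E vs. RE. In E vs. M they include *Gbp4*, *Cd1d1*, *Jak1*, *H60b*, *Tapbpl*, *Ifngr2*, *Lnpep* and *Rel*. Those in M vs. RE include *Tapbpl*, *Erap1*, *Irf7*, *Ifi44*, *Ifngr2* and *Gbp4*. Leaving out each library in turn gave 1 to 3 members called in E vs. M, 0 to 2 in M vs. RE and 0 to 0 in E vs. RE, and 945 to 3362, 683 to 2337 and 44 to 2348 genes called, against 2358, 1789 and 1302. A lone library was then assumed to vary like the other stages. In M vs. RE, 1 member was called with library totals and 1 with no filter, and 5 at a fold change of 1.5. In E vs. RE, 697 genes were called when only those stages were fitted. Library totals moved the median of all genes to -0.29 in E vs. M and 0.18 in M vs. RE, and the share of calls that were higher from 50.6% to 30.5% and from 62.8% to 73.8% (66.2% to 57.1% in E vs. RE). With totals the sign changed in E vs. M for *H2-D1* (-0.20), *Psmb9* (-0.043), *Psmb5* (-0.18), *Psmb7* (-0.27) and *Irf1* (-0.17), in M vs. RE for *Psmb6* (0.12) and in E vs. RE for *Tap2* (-0.053). Calls per list with totals were 1 (lower, in place of 2 higher) and 0 for interferon receptors in E vs. M and M vs. RE (also 0 with median-of-ratios factors), 2 for MHC class II genes in M vs. RE, and 1, 2 and 0 for heavy chains, proteasome activators and natural killer ligands in E vs. RE.

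With the replicate block, 2431, 1830 and 1284 genes were called in E vs. M, M vs. RE and E vs. RE, and the block changed no call of a member. It gave 2 calls for heavy chains in M vs. RE and 0 for natural killer ligands in E vs. RE. Leaving out single libraries changed signs as follows, with the lowest and highest value over the left-out libraries. In E vs. M these were *Psmb9* (-0.12 to 0.60), *Psmb5* (-0.33 to 0.55), *Psmb6* (-0.39 to 0.013) and *Psmb7* (-0.19 to 0.22), in M vs. RE *Nlrc5* (-0.030 to 0.71), and in E vs. RE *H2-K1* (-0.35 to 0.046), *B2m* (-0.25 to 0.12), *Tap2* (-0.056 to 0.14), *Psmb8* (-0.35 to 0.17), *Psmb9* (-0.45 to 0.23), *Psmb5* (-0.61 to 0.24) and the ratios of *Psmb8* to *Psmb5* (-0.069 to 0.27), *Psmb9* to *Psmb6* (-0.0080 to 0.31) and *Psmb9* to *Tap1* (-0.20 to 0.46). The lowest and highest values came without an E library, except for *Nlrc5* (M libraries). The cause of these changes was not tested.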

Other observations

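Of 5 MHC class II genes tested, 2 were called higher in M than in E and 0 lower, beside 8.58% and 8.39% of all genes. *Cd74*, the invariant chain of class II molecules, was at 6.32 and 5.12 ppm in E, 14.5 and 17.5 in M and 2.84 and 3.70 in RE (log2 fold change from E to M 1.47, limma adjusted p = 0.00168, and from M to RE -2.26, limma adjusted p = 0.000269). The other gene called, *H2-DMb1*, had no more than 1 read's worth in either E library and 0.453 and 0.328 ppm in M. Leaving out single libraries gave 1.29 to 1.62 for *Cd74* and 1.96 to 2.26 for *H2-DMb1* in E vs. M. Both calls were lost in some of these fits. Of 3 ligands of natural killer receptors tested, 1 was called higher in M than in E and 0 lower, beside 8.58% and 8.39% of all genes. This was *H60b*, at 0.664 and 0.677 ppm in E, 2.28 and 2.01 in M and 1.73 and 1.68 in RE (1.54, adjusted p = 0.00187 in E vs. M by limma). The other ligands, *Raet1b* and *Raet1c*, were not called and went the other way. Their log2 fold changes were -0.21 and -0.16 in E vs. M. In E vs. RE they were -0.71 and -0.65, against 1.23 for *H60b*.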
